A study of Mus musculus with 37 samples.

Results

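Immediate early genes and heat shock genes are the 2 groups of fast-responding genes followed here, 34 genes in all out of 15710 measured, in every array of an atlas of the developing mouse kidney. The members were taken as a list by gene symbol: 7 AP-1 and related bZIP transcription factors, 7 zinc finger and nuclear receptor transcription factors, 10 genes of feedback and growth arrest, 3 genes of secreted or cytoskeletal proteins and 7 heat shock proteins. All 34 were represented on the array, by 67 probe sets of which 66 exceeded the intensity filter, and 17 of the genes had more than 1 probe set. For these the probe set with the highest mean signal was used, and the others are given where they differed.

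Immediate early genes are switched on within minutes of a stimulus from transcription factors that are already present in the cell, mainly serum response factor with its ternary complex partners and CREB. The encoded proteins are transcription factors such as the Fos and Jun subunits of AP-1 and the Egr zinc fingers, followed by proteins that end the response by removing phosphate from MAP kinases or by degrading short-lived mRNA. Heat shock genes are driven by a different factor, HSF1, which is released when unfolded proteins occupy the chaperones, and in the kidney the inner medulla is known for high chaperone expression under osmotic stress.

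Wild-type CD-1 mouse embryos were used, and RNA from pooled material (about 50 sections of 5 kidneys per pool, according to the labels) was amplified in 2 rounds and hybridised to 37 arrays, 1 sample each. At E15.5 there were 3 arrays of medullary collecting duct, 4 of medullary interstitium, 3 of ureteric tip, 2 of proximal tubule, 4 of renal corpuscle and 4 of S-shaped body, and at E12.5 there were 5 of renal vesicle, the earliest epithelium that forms on the way to a nephron. At E11.5 there were 4 arrays of ureteric bud and 8 of metanephric mesenchyme, the tissue that the bud invades. The protocol text attached to the samples names laser capture microdissection (LCM), in which cells are cut from frozen sections with a laser, for all of them. The titles of 8 of the 12 arrays of E11.5 give another word: 2 of mesenchyme and 3 of ureteric bud are titled dissected, and 2 of mesenchyme and 1 of bud are titled collagenase, an enzyme that digests extracellular matrix. A further 3 mesenchyme arrays are titled LCM and 1 has no method word. The arrays are grouped here by these title words, and the conflict with the protocol text remains. Arrays are separate pools by their labels, but whether pools of a group came from separate litters is not stated, so the p-values measure the spread between these pools.

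Values are given as log2 normalised signal unless stated otherwise, and a gene was called when its adjusted p was under 0.05 and its log2 fold change at least 1 in either direction in limma fitted over all 15710 genes. The median deposited signal of an array lay between 127 and 334, and 29 of 37 arrays correlated best with an array of their own component. The labels were checked against markers: in its own comparison 4 of 4 podocyte markers were called higher in renal corpuscle, 6 of 6 proximal tubule markers in proximal tubule, 4 of 5 collecting duct markers in collecting duct and 6 of 8 stroma markers in interstitium. A pair of arrays went against their labels. Renal corpuscle 4 had a mean podocyte marker level of 10.70, against 14.15 to 15.28 in the other corpuscle arrays, and a mean renal vesicle and S-shaped body marker level of 12.41, against 8.83 to 9.20. S-shaped body 3 had a podocyte marker level of 14.93, above the other 3 S-shaped body arrays, of which the lowest was at 10.71. Its vesicle and S-shaped body marker level was 8.84, against 12.06 to 12.73. Its proximal tubule marker level was 13.27, against 8.99 to 9.41 in the other S-shaped body arrays and 8.26 to 9.40 in renal corpuscle. Its stroma marker level was 14.28, against 11.23 to 11.47 in the other S-shaped body arrays. Over all genes, renal corpuscle 4 correlated best with S-shaped body 2 (r = 0.8503) and S-shaped body 3 with renal corpuscle 1 (r = 0.8464). Whether these arrays were exchanged was not tested. The calls in these components are given with and without renal corpuscle 4 and S-shaped body 3. Leaving out either or both of these arrays ended no member's call in any E15.5 component.

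The first comparison asks how these genes differ in one tissue at one stage between arrays that bear different collection words: mesenchyme titled dissected or collagenase (4 arrays) against mesenchyme titled LCM (3 arrays). Fos, Fosb, Egr2, Egr1, Nr4a1 and Btg2 were higher in the dissected or collagenase arrays, with log2 fold changes of 2.47 to 7.61, and no member was lower. These 6 are 17.6% of the 34 members, beside 0.356% of all 15710 genes called in either direction (16 higher and 40 lower). The median log2 fold change of the members was 0.85 against 0.03 over all genes, and 28 of 34 members were above 0 against 51.8% of all genes. The heat shock proteins had no call, and their median log2 fold change was 0.47.

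Fos, the AP-1 subunit that is almost absent from resting cells, had a deposited signal of 35430 and 35870 in the arrays titled dissected and 26750 and 54960 in those titled collagenase, against 201.2, 252.3 and 57.29 in the LCM arrays. After normalisation the group means were 15.18 ± 0.31 (SD, n = 4) and 7.66 ± 0.97 (SD, n = 3) on the log2 scale. The groups did not overlap, and the lowest array of the first group stood more than 6 log2 units above the highest LCM array. The log2 fold change was 7.53 ± 1.04 (SE; limma adjusted p = 0.000116).

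Fosb, a second Fos family subunit of AP-1, read 13.81 and 14.40 (dissected) and 14.11 and 13.68 (collagenase), against 5.38, 6.80 and 6.99 (LCM). All 4 arrays titled dissected or collagenase sat within less than 1 log2 unit of each other, well clear of the LCM arrays, which were all under the intensity filter of 7.89. Its log2 fold change of 7.61 ± 0.46 had the smallest adjusted p among the members, 1.44e-12.

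Among the zinc finger factors, Egr2 (also known as Krox20, best known in the hindbrain and Schwann cells) was at 13.16 and 13.73 in dissected and 11.73 and 13.78 in collagenase arrays, against 6.04, 8.93 and 6.91 in LCM arrays. The log2 fold change was 5.81 ± 0.76 (adjusted p = 4.13e-05). Egr1, the most widely used member of the same family as a marker of a recent stimulus, was at 16.15 and 16.39 in dissected and 14.71 and 15.82 in collagenase arrays, against 10.91, 11.30 and 11.10 in LCM arrays. Unlike Fos, Fosb and Egr2, Egr1 was well above the intensity filter of 7.89 in LCM arrays too, and its log2 fold change was 4.66 (adjusted p = 0.0173).

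Nr4a1 encodes the orphan nuclear receptor Nur77, and Btg2 an antiproliferative protein that recruits mRNA deadenylases. Nr4a1 was at 11.88 and 12.52 in dissected and 10.47 and 10.87 in collagenase arrays, against 8.75, 8.98 and 8.54 in LCM arrays (log2 fold change 2.68, adjusted p = 0.0238). Btg2 was at 12.83 and 13.66 in dissected and 11.71 and 12.86 in collagenase arrays, against 10.57, 10.45 and 9.88 in LCM arrays (log2 fold change 2.47, adjusted p = 0.00721). In both genes the groups were separate, and the lowest values of the first group came from collagenase arrays.

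**Figure D1:**
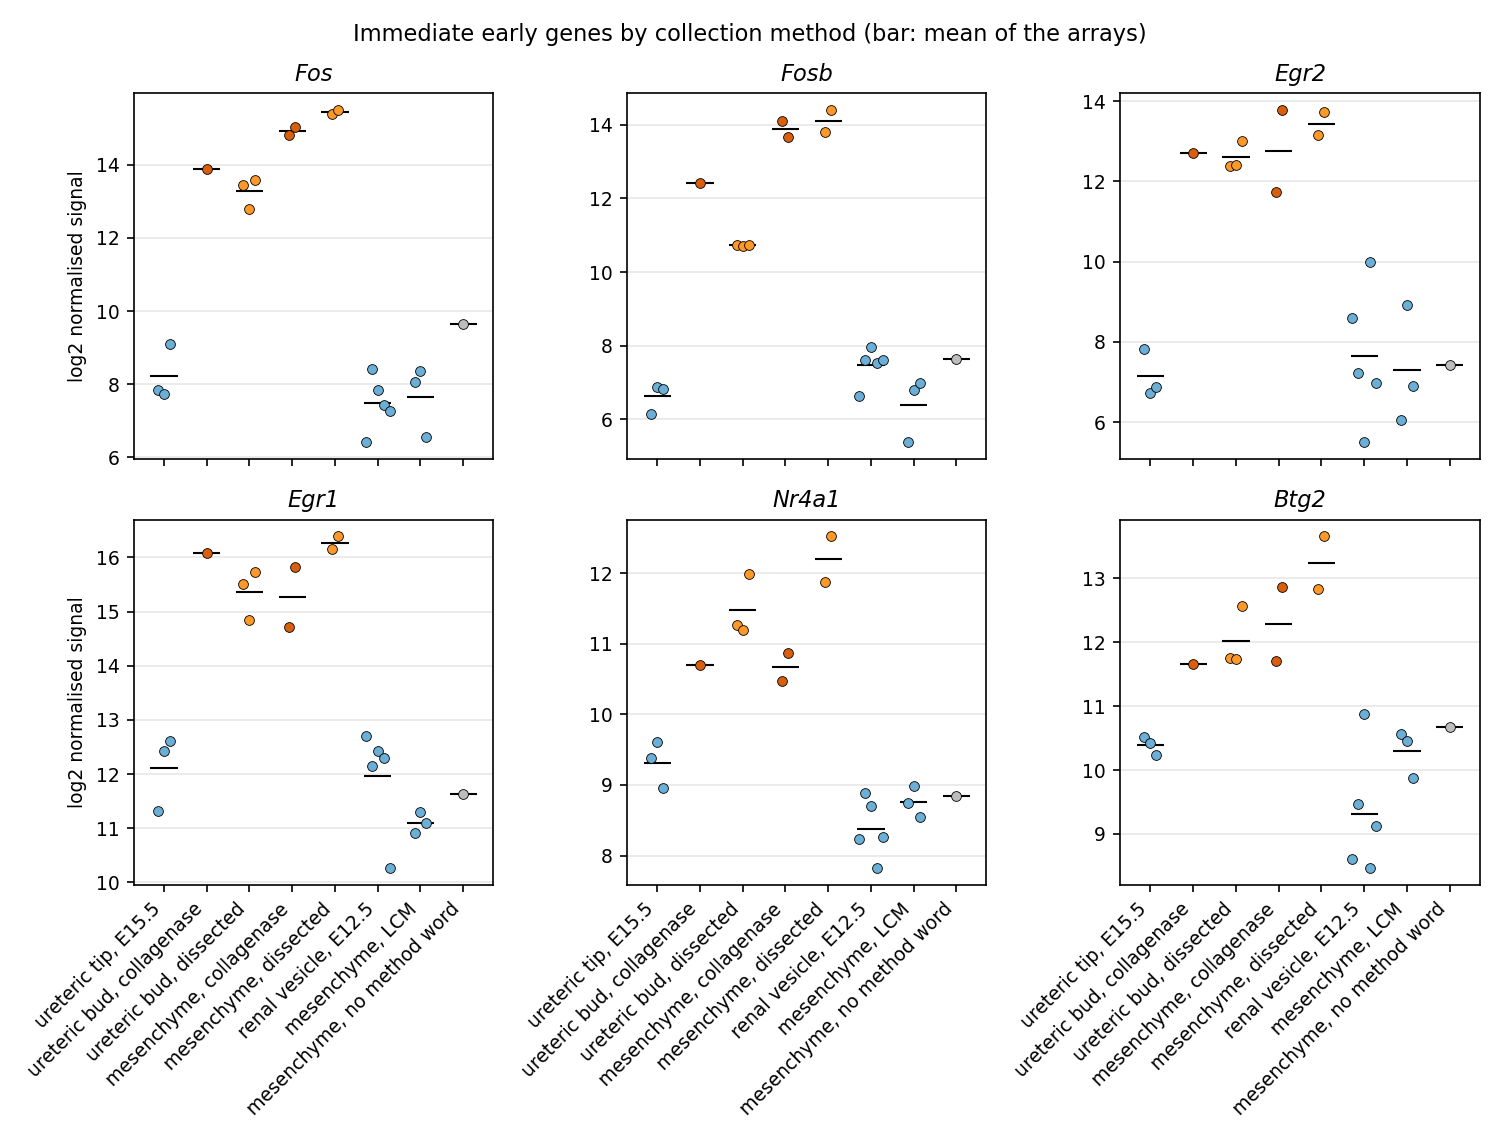
Log2 normalised signal (vertical axis) of the 6 members called between mesenchyme arrays titled dissected or collagenase and those titled LCM, one point per array in the E11.5, E12.5 and ureteric tip groups, with a bar at the group mean. Fos stood at 14.83 or above in the 4 mesenchyme arrays titled dissected or collagenase and between 6.55 and 8.36 in the 3 titled LCM.

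The DNA just before the start of these genes is shown because the 5 members called in this comparison with an entry share a short motif there. The sequences are the 200 bases before the RefSeq transcription start on the gene's own strand, in mouse build GRCm38.p6: Fos at chr12:85473690-85473889 on the plus strand, Fosb at chr7:19310046-19310245 on the minus strand, Egr2 at chr10:67537669-67537868 on the plus strand, Nr4a1 at chr15:101266646-101266845 on the plus strand and Btg2 at chr1:134079156-134079355 on the minus strand. Capitals mark TGACG or its reverse complement CGTCA, one arm of the cAMP response element bound by CREB, and in Egr2 also the serum response element.
Fos: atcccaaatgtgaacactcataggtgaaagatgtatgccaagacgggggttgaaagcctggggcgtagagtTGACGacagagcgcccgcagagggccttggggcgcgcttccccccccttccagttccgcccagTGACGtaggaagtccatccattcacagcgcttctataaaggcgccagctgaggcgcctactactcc
Fosb: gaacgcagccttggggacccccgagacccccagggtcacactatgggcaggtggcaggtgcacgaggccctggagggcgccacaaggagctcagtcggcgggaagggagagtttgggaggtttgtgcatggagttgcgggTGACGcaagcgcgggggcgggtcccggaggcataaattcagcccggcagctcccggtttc
Egr2: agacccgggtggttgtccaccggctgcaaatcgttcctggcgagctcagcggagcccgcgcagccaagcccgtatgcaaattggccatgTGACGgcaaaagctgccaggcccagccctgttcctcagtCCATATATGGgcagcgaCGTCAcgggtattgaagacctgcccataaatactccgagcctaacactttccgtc
Nr4a1: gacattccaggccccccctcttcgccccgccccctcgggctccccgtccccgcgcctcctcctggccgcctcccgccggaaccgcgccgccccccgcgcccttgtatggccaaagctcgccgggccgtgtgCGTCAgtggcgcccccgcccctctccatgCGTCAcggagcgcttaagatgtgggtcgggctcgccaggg
Btg2: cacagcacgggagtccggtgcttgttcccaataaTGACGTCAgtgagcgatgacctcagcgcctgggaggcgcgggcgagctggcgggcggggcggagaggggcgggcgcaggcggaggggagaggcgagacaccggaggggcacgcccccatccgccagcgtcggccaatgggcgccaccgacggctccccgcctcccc

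The table of promoters held 28 of the 34 members, as windows of 300 bases from 250 before to 50 after the start. TGACG on either strand was in the window of 15 of these 28 members (53.6%), against 23% of 27025 genes. The full palindrome TGACGTCA, which contains that arm on both strands, was in 3 of 28 (Btg2, Dusp1 and Maff) against 2.03% of genes, and the serum response element in 2 of 28 (Egr2 and Zfp36) against 1.81%. The AP-1 site (TGACTCA or TGAGTCA) was in none of the 28 member windows against 5.95% of genes. These are letter matches in a short window and do not show that a factor binds there.

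A further 12 members were higher in every dissected or collagenase mesenchyme array than in any LCM array without being called. In all, 18 of 34 members were higher without overlap and 1 was lower, where 11.3% of all genes were higher without overlap. The 4 uncalled members with the largest log2 fold changes were Klf4 (2.90 ± 1.28, adjusted p = 0.479), Maff (2.47, adjusted p = 0.318), Zfp36 (2.21, adjusted p = 0.0747) and Ccn1 (1.74, adjusted p = 0.395). Klf4 is a zinc finger factor of epithelial differentiation and quiescence, Maff a small Maf bZIP protein, Zfp36 the mRNA-decay factor tristetraprolin and Ccn1 a matricellular protein induced by YAP and serum response factor. The 4 values of Klf4 were 12.37, 13.31, 12.19 and 12.97 in the dissected and then the collagenase arrays, against 10.00, 10.17 and 9.27 in LCM arrays.

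By role, the zinc finger and nuclear receptor group had 3 of 7 members called and a median log2 fold change of 2.68, and the AP-1 group had 2 of 7 called and a median of 1.59. Within AP-1, the Fos subunits and the Jun subunits read differently: Junb, the partner that restrains Jun, was at 1.59 (adjusted p = 0.388), and Jun and Jund at 0.68 and 0.69, none of them called. The feedback and growth arrest group had 1 of 10 called and a median of 1.09, and the secreted and cytoskeletal group had none of 3 called and a median of 0.42. Among the heat shock proteins, the values lay between -0.22 and 1.01, the highest being Dnajb1, an Hsp40 co-chaperone.

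**Figure D2:**
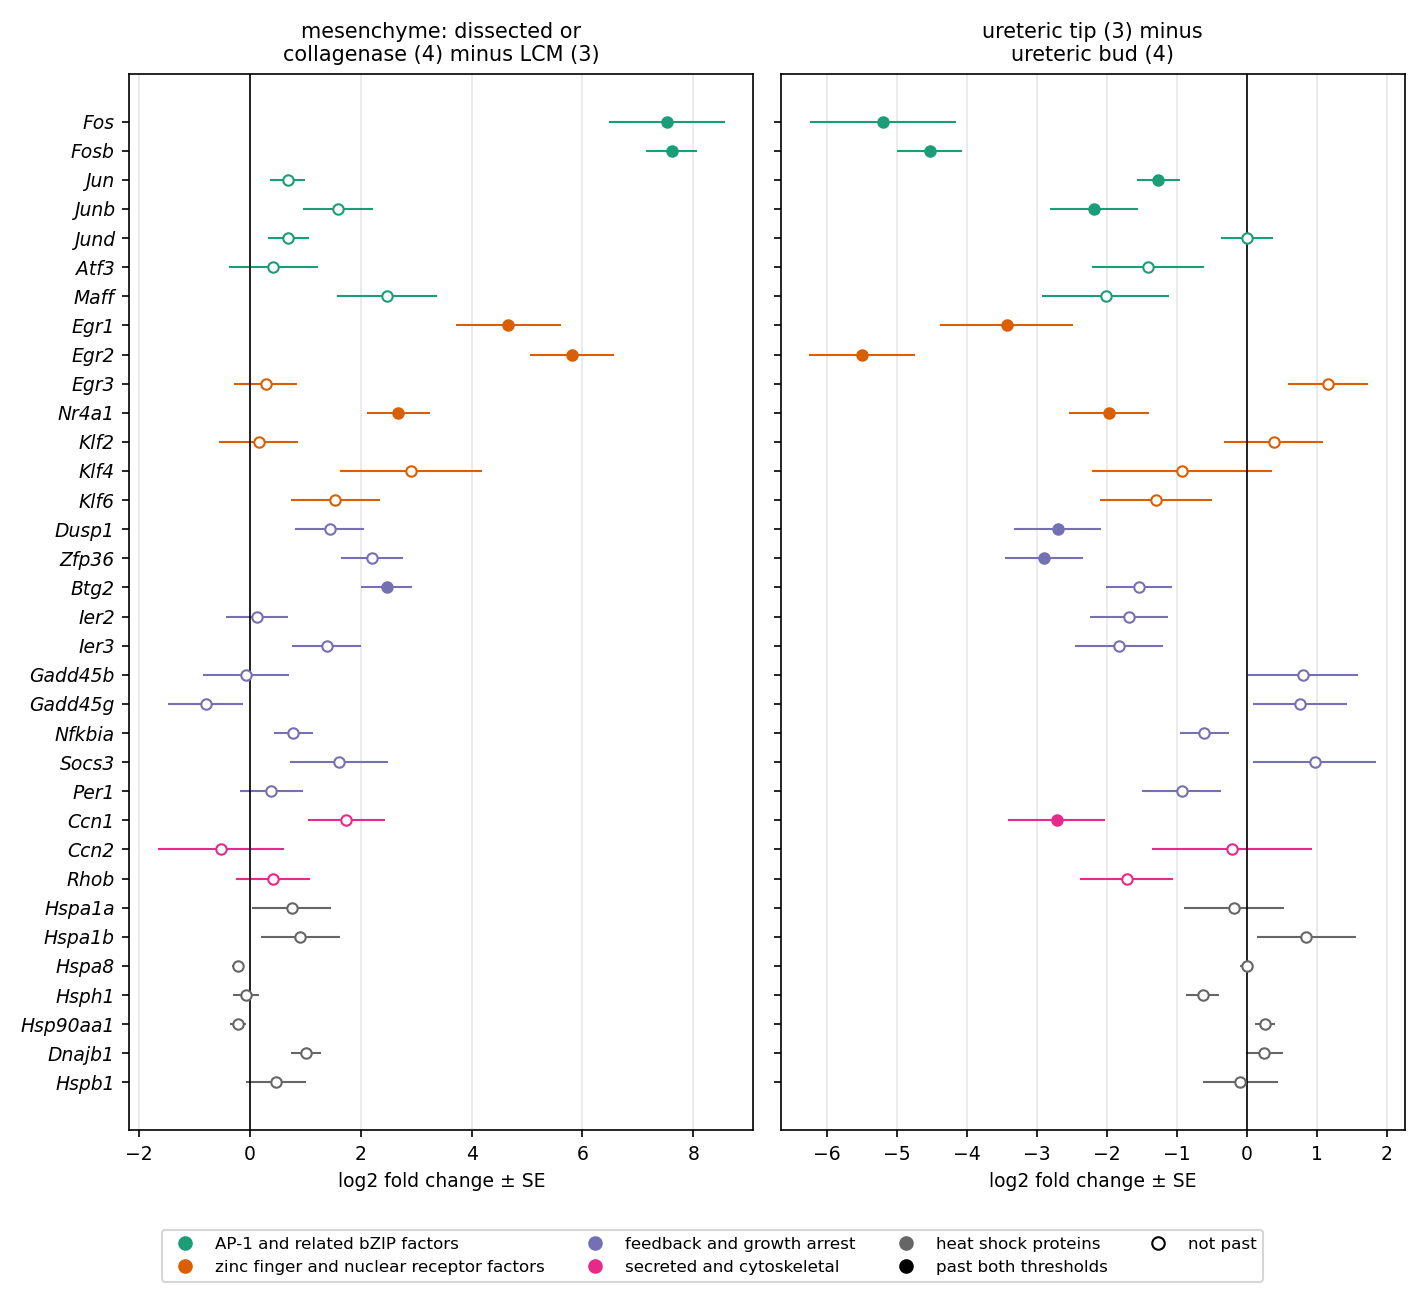
Log2 fold change ± SE (horizontal axis) of the 34 members in 2 comparisons, filled where the gene was called and coloured by role. Left, mesenchyme titled dissected or collagenase minus mesenchyme titled LCM, where Fos and Fosb lay at 7.53 and 7.61. Right, ureteric tip minus ureteric bud, where Egr2 and Fos lay at -5.49 and -5.20 and the heat shock proteins between -0.63 and 0.85.

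None of 38 other measured immediate early genes was called in this comparison, with a median log2 fold change of 0.65, and the largest values were Nr4a3, a relative of Nr4a1 (2.14), Cxcl1, a chemokine (2.03), and Gadd45a, a growth arrest protein (2.01). None of 21 other heat shock genes was called (median 0.03, the small chaperone Cryab at -2.08), none of 12 genes of the endoplasmic reticulum stress response (median -0.15, Ddit4 at 1.33), and none of 12 upstream kinases and factors (median 0.24, Tead1 at 1.17). These lists were drawn up with earlier results of these data known.

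Cell type markers moved with the same split. Epithelial junction genes averaged 7.49 to 7.94 in the dissected or collagenase mesenchyme arrays against 9.29 to 11.11 in LCM arrays (2 of 8 called lower, none higher, median log2 fold change -2.54), and ureteric epithelium markers averaged 8.20 to 8.38 against 9.27 to 10.81 (none of 7 called). The Actb 3' to 5' control ratio, a measure of RNA length, was 3.44 to 5.10 against 3.96 to 4.33 on the log2 scale. Their part in the result was not tested. Most of these arrays have no date in their title, so whether the 2 sets shared dates is not known. Date and collection word therefore cannot be told apart. In bulk samples, fewer cells of a type and less RNA per cell cannot be told apart either.

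Leaving out single arrays ended some of the calls but none for Fos, Fosb or Egr2. Those 3 were called in all 21 alternative settings, with log2 fold changes of 6.92 to 7.88 for Fos, 6.74 to 8.06 for Fosb and 5.17 to 6.63 for Egr2. Egr1 lost its call without LCM array 1 (adjusted p = 0.125), LCM 2 (0.0656), LCM 3 (0.110) or dissected 2 (0.0521). Nr4a1 lost it without LCM 1 (0.148), LCM 2 (0.0722), LCM 3 (0.175), dissected 1 (0.0665) or dissected 2 (0.123), and Btg2 without LCM 3 (0.111) or dissected 2 (0.0521). The array with no method word, which entered no comparison, read 9.64 for Fos, 7.63 for Fosb, 11.63 for Egr1 and 7.43 for Egr2.

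The choice of probe set mattered for single genes. Egr3, another member of the Egr family, was at 0.29 (adjusted p = 0.965) by its brighter probe set but at 4.34 (adjusted p = 0.000839) by its other one. That other probe set read 10.52 and 11.87 in dissected and 9.02 and 11.42 in collagenase mesenchyme arrays, against 6.61, 6.05 and 6.45 in LCM arrays. For Egr2 both probe sets were called (5.81 and 4.31), for Btg2 the second was at 0.52 and uncalled, and the Klf6 probe sets ran between -0.69 and 2.08. The second Jun probe set was at 1.33, against 0.68 for the one used, and both were uncalled. Of 32 member probe sets that were not used, 1 passed both thresholds where the used one did not, and 7 had the opposite sign.

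**Figure D3:**
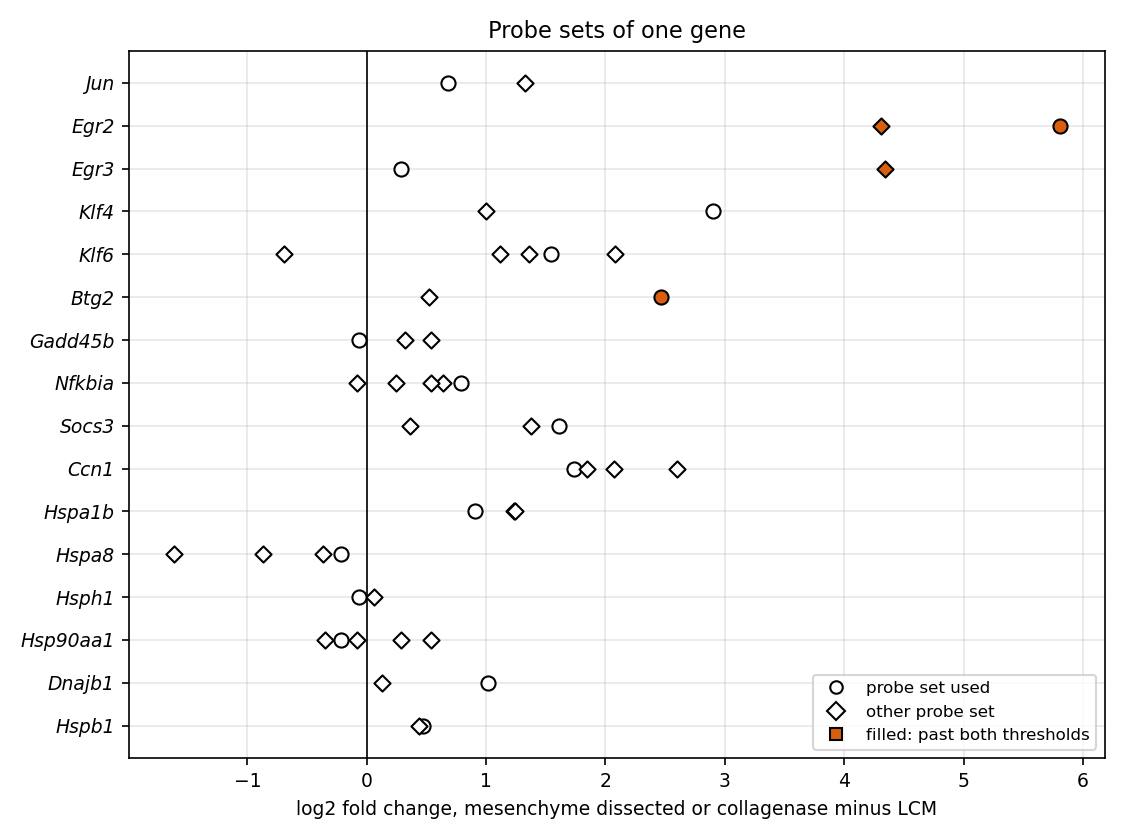
Log2 fold change of mesenchyme titled dissected or collagenase minus mesenchyme titled LCM (horizontal axis) for every kept probe set of the members that have several, with the probe set used as a circle, the others as diamonds and filled symbols past both thresholds. The probe sets of Egr3 lay at 0.29 and 4.34, on either side of the thresholds, while both probe sets of Egr2 were past the thresholds.

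Within the mesenchyme, arrays titled collagenase (2) were set against arrays titled dissected (2). No member was called, and 2 of 15710 genes were (0.0127%), both lower. The members had a median log2 fold change of -0.42 against -0.04 over all genes, and 10 of 34 were above 0 against 47.4% of all genes. Without overlap, 14 members were lower and 2 higher in the collagenase arrays, beside 3386 lower and 2727 higher of 15710 genes. Those furthest from 0 were Nr4a1 (-1.53 ± 0.74), Ccn1 (-1.31 ± 0.91), Hspa1a, a stress-inducible Hsp70 (-1.20 ± 0.94), and Atf3, a bZIP factor induced by many stresses (-1.18 ± 1.05), all with an adjusted p of 1. With 2 arrays on each side this comparison resolves little, and Fos (-0.51) and Fosb (-0.20) differed far less here than either did from LCM arrays.

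Ureteric bud (4 arrays, 3 titled dissected and 1 collagenase) was compared with mesenchyme of the same stage and method words (4 arrays). Fosb and Dnajb1 were lower in bud and Jun was higher, 3 of 34 members (8.82%) beside 6.92% of all genes. Fosb was at 10.74, 10.72 and 10.74 in the dissected and 12.41 in the collagenase bud arrays, against 13.81, 14.40, 14.11 and 13.68 in mesenchyme, a log2 fold change of -2.85 ± 0.43 (adjusted p = 2.86e-05). The bud was thus lower than mesenchyme throughout, and its collagenase array stood above the 3 dissected ones.

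Dnajb1 was at 13.57, 14.00, 14.01 and 14.24 in bud against 14.91, 15.10, 15.13 and 15.68 in mesenchyme (log2 fold change -1.25, adjusted p = 0.00097), without overlap. Its other probe set gave 0.21 (adjusted p = 0.951). Jun, the main partner of Fos in AP-1, was at 13.77, 13.62, 14.28 and 12.87 in bud against 12.73, 12.82, 11.80 and 12.39 in mesenchyme (log2 fold change 1.20, adjusted p = 0.00621). Only the collagenase bud array came close to the mesenchyme range for Jun. The call for Jun ended without mesenchyme collagenase 1 (0.99, adjusted p = 0.0513) or bud dissected 3 (0.98, adjusted p = 0.0658). Of 22 alternative settings, 4 ended this call, not all of them by leaving out an array. Over all these settings the lowest log2 fold change of Jun was 0.60 and its highest limma adjusted p was 0.724.

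Fos, at 13.45, 12.80, 13.58 and 13.88 in bud, was high in both tissues and its log2 fold change of -1.76 was not called (adjusted p = 0.373). The other uncalled members furthest from 0 were Ier2, a short-lived nuclear protein (1.38, adjusted p = 0.113), Socs3, the inhibitor of cytokine receptor signalling (-1.33, adjusted p = 0.457), and Klf4 (-1.33, adjusted p = 0.688). The second Egr3 probe set was called lower in bud, at -3.20 (adjusted p = 0.00137). Of the other immediate early genes, 1 was higher and 2 lower of 38: the cell cycle inhibitor Cdkn1a (2.20) against the kinase Sgk1 (-2.66) and the interferon factor Irf1 (-2.32). Among the marker genes, 6 of 7 ureteric epithelium markers were called higher in bud and 7 of 9 nephron progenitor markers were called lower. Fkbp4, an Hsp90 co-chaperone, was the 1 call of 21 heat shock genes (1.58), and Sesn2 the 1 call of 12 genes of endoplasmic reticulum stress (1.92). Bud arrays of this comparison and mesenchyme arrays of the preceding ones also serve in the other comparisons, so the results are not independent.

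Renal vesicle (E12.5, 5 arrays) was compared with LCM mesenchyme (E11.5, 3 arrays), both without a dissected or collagenase word. No member was called, beside 2.5% of all genes, and the median log2 fold change was -0.25 against -0.07 over all genes. Fos was at 6.41, 8.42, 7.84, 7.43 and 7.27 in vesicle arrays against 8.06, 8.36 and 6.55 in mesenchyme, and Fosb at 6.63, 7.6, 7.97, 7.54 and 7.62 against 5.38, 6.80 and 6.99. Both genes were low in both tissues, with overlapping ranges.

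The members furthest from 0 in vesicle were Ccn2, a matricellular protein and YAP target (-2.26, adjusted p = 0.278), Klf6, a zinc finger factor (-2.14, adjusted p = 0.132), Atf3 (-1.65, adjusted p = 0.260) and Zfp36 (-1.64, adjusted p = 0.0922). Klf6 was called with vesicle array 3 left out (-2.86, adjusted p = 0.0168). Among the other immediate early genes, Rgs2, a regulator of G protein signalling (-2.95), and Errfi1, a feedback inhibitor of EGF receptor (-1.80), were lower in vesicle, 2 of 38. None of 21 other heat shock genes, 12 genes of endoplasmic reticulum stress or 12 upstream factors was called.

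The ureteric tip of E15.5 (3 arrays) descends from the ureteric bud of E11.5 (4 arrays), and these were compared as the same lineage at a later stage. Egr2, Fos, Fosb, Egr1, Zfp36, Ccn1, Dusp1, Junb, Nr4a1 and Jun were lower in the tip, 10 of 34 members (29.4%), and none was higher. Among all genes 3.99% were called, 306 higher and 321 lower, and the median log2 fold change was -1.10 over the members against -0.22 over all genes. Tip arrays carry no dissected or collagenase word and all bud arrays do, so collection word, stage and component cannot be told apart.

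Egr2 was at 7.82, 6.73 and 6.87 in tip against 12.39, 12.40, 13.01 and 12.72 in bud, a log2 fold change of -5.49 ± 0.76 (adjusted p = 2.78e-05) with every tip value under the intensity filter of 7.89, so its size rests on signal near background. Fos was at 7.83, 7.74 and 9.10 in tip against 13.45, 12.80, 13.58 and 13.88 in bud (-5.20 ± 1.04, adjusted p = 0.00281). Both genes in the tip lay in the range of the LCM mesenchyme or just above it.

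Fosb was at 6.15, 6.89 and 6.82 in tip against 10.74, 10.72, 10.74 and 12.41 in bud (-4.53 ± 0.46, adjusted p = 1.87e-07), again with all tip values under the filter. Egr1 was at 11.31, 12.42 and 12.62 in tip against 15.51, 14.85, 15.74 and 16.08 in bud (-3.43, adjusted p = 0.0323). As in the mesenchyme, Egr1 was the one of these genes with a substantial level in both groups.

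Of the 10 feedback and growth arrest genes, Dusp1 and Zfp36 were called. Dusp1, the phosphatase that inactivates MAP kinases, was at 9.60, 8.90 and 9.74 in tip against 12.20, 11.98, 12.26 and 12.02 in bud (-2.70, adjusted p = 0.00872), and Zfp36 at 9.03, 8.45 and 9.53 against 11.48 to 12.16 over the bud arrays (-2.89, adjusted p = 0.00194). The bud arrays were tight for both and the tip arrays were all lower by more than 1 log2 unit. Ccn1 (-2.72, adjusted p = 0.0186), Junb (-2.18, adjusted p = 0.0417), Nr4a1 (-1.97, adjusted p = 0.0417) and Jun (-1.26, adjusted p = 0.0143) completed the calls.

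For Ccn1 the probe sets disagreed: 2 of the 4 were called lower (-2.72 and -3.56) and 2 stood at 0.51 and 0.56. Btg2, uncalled at -1.54 (adjusted p = 0.053), had a second probe set that was called higher in the tip, at 2.67, while the first was called lower when all probe sets were fitted together (adjusted p = 0.041). Other uncalled members far from 0 were Maff (-2.02, adjusted p = 0.224), Ier3, a stress-inducible survival protein (-1.83, adjusted p = 0.0973), and Ier2 (-1.68, adjusted p = 0.0813). By role, 4 of 7 AP-1 factors, 3 of 7 zinc finger and nuclear receptor factors, 2 of 10 feedback genes and 1 of 3 secreted or cytoskeletal genes were lower. None of 7 heat shock proteins was called, and their median was 0.00.

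Of 38 other immediate early genes, 2 were higher in the tip and 3 lower: Cebpb, a bZIP factor of the acute phase response (2.03), and Ier5, a regulator of HSF1 (1.42), against Cdkn1a (-2.05), Fosl1, another Fos family subunit (-1.60), and Srf, the serum response factor itself (-1.51). Atf4, the effector of the integrated stress response, was the 1 call of 12 genes of endoplasmic reticulum stress (-1.09), and Yap1, the coactivator of TEAD factors, was at -1.03, with Srf one of 2 calls among 12 upstream factors. No call was made among 21 other heat shock genes.

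Marker genes and RNA length differed between the same groups. Stroma markers averaged 10.65 to 13.01 in tip against 8.07 to 8.99 in bud (6 of 8 called higher, none lower), and nephron progenitor markers 9.92 to 10.15 against 7.55 to 8.38 (3 of 9 called higher, none lower), and 3 of 6 mural and mesangial markers were called higher. The Actb 3' to 5' log2 ratio was 1.43 to 2.42 in tip against 3.43 to 3.95 in bud. With that ratio as a covariate 6 members were still called and 1.01% of all genes, and Egr1, Jun, Nr4a1 and Ccn1 were not. The part of these markers in the result was not tested.

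Egr2, Fos, Fosb and Zfp36 were called in all 20 alternative settings. Egr1 was not called without any single one of tip 1 (adjusted p = 0.163), tip 2 (0.0789), tip 3 (0.0652), bud dissected 1 (0.0691), bud dissected 3 (0.0797) or the bud collagenase array (0.0766). Junb and Nr4a1 were not called without tip 1 (0.102 and 0.118), tip 2 (0.0939 and 0.0851), tip 3 (0.161 and 0.152), bud dissected 1 (0.111 and 0.0845), bud dissected 2 (0.0796 and 0.0805) or bud dissected 3 (0.108 and 0.144). Jun lost its call without tip 1 (0.106), tip 2 (0.0910) or bud dissected 3 (0.0966), Ccn1 without tip 1 (0.0573), tip 2 (0.118), bud dissected 1 (0.0553) or bud dissected 3 (0.0637), and Dusp1 without tip 2 (0.0618). With the deposited scaling in place of quantile normalisation, all genes split into 621 higher and 217 lower and the median of all genes was 0.16 in place of -0.22.

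At E15.5 the question was which members mark one component against the mean of the other 5. By the moderated F test in limma over the 6 components, 9 of 34 members differed (26.5%), beside 20.7% of all genes. The heat shock proteins gave 5 of these: Hspa1a (F = 11.9), Hsp90aa1, the inducible Hsp90 (9.32), Hspb1, the small heat shock protein Hsp27 (8.92), Hspa8, the constitutive Hsc70 (7.18), and Hspa1b, the second inducible Hsp70 gene (6.23). The other 4 were Jun (8.69), Ier3 (6.43), Gadd45b, a growth arrest and MAP kinase pathway protein (4.02), and Dusp1 (3.97). Fos, Fosb, Egr1 and Egr2 were not among them. Under a fixed block of title date 1 member passed, beside 1.52% of all genes. Without renal corpuscle 4 there were 13 (22.8% of all genes), without S-shaped body 3 there were 10 (23.2%) and without both 13 (25.7%).

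In medullary collecting duct 3 of the 7 heat shock proteins were called, and Hsp90aa1, Hspa8, Hsph1 and Dnajb1 were not. Hspa1a, Hspa1b, Hspb1 and Gadd45b were higher there than in the other components, 4 of 34 members (11.8%), beside 1.5% of all genes, and no member was lower. Hspa1b was at 12.38, 13.77 and 14.03 in collecting duct, against a lowest, median and highest value of 8.84, 10.99 and 12.39 in the other 17 arrays. Its log2 fold change was 2.73 (6.61-fold, adjusted p = 0.00899), and its 3 probe sets gave 2.73, 3.00 and 3.27, all called.

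Hspa1a was at 10.11, 10.38 and 11.08 in collecting duct, against 5.42, 7.56 and 10.34 (lowest, median, highest) in the other arrays, a log2 fold change of 2.80 (adjusted p = 0.00729). Collecting duct arrays reached into the upper end of the others, where the interstitium arrays lay. Hspb1 was at 11.23, 12.82 and 12.61, against 8.55, 10.03 and 13.40 (1.96, adjusted p = 0.0140), and Gadd45b at 12.86, 12.65 and 12.22, against 8.31, 9.98 and 11.80 (2.46, adjusted p = 0.0432). Gadd45b was the one of the 4 whose lowest collecting duct array exceeded every other array.

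Hspa1a and Hspa1b encode nearly the same protein, and whether signal from one reached probes for the other was not tested. Their promoters over 200 bases were identical at 199 positions (99.5%). The Hspa1b sequence at chr17:34959239-34959438 (GRCm38.p6, minus strand) is shown because both called Hsp70 genes carry the same capitalised stretch, a pair of inverted heat shock units GAANNTTC.
Hspa1b: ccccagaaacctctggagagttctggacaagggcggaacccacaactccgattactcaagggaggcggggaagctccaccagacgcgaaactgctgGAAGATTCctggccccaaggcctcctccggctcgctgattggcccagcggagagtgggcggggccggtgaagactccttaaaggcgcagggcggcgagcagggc

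This pair (GAANNTTC or TTCNNGAA, either strand) was in the 300-base window of 7 of 28 members, 4 of 5 heat shock members among them, against 17% of genes. The longer heat shock element, with a further alternating unit, was in 1 of 28 members (Hsph1) against 0.662% of genes. It was not in the window of Hspa1a or Hspa1b. Each collecting duct array shared the date in its title with 1 to 4 arrays of other components. In collecting duct 3, 1 and 2, in that order, Hspa1b exceeded the mean of those arrays by 4.37, 1.84 and 3.47, and Hspa1a by 4.74, 3.42 and 2.63. Hspb1 exceeded it by 2.53, 1.23 and 2.50 and Gadd45b by 2.02, 1.66 and 2.27, so each of the 4 genes was higher on all 3 dates. With title date as a fixed block, Hspa1a (3.57, adjusted p = 0.0155) and Hspa1b (3.52, adjusted p = 0.0407) were called and Hspb1 (2.37, adjusted p = 0.0510) and Gadd45b (2.31, adjusted p = 0.156) were not. The Actb 3' to 5' log2 ratio was 1.35 to 2.74 in collecting duct against 1.43 to 4.50 in the other arrays, and with it as a covariate Hspb1 (1.36, adjusted p = 0.134) and Gadd45b (2.40, adjusted p = 0.134) were not called.

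None of the 4 was called without collecting duct 2 (adjusted p of 0.0916 for Hspa1a, 0.162 for Hspa1b, 0.318 for Hspb1 and 0.335 for Gadd45b) or without collecting duct 3 (0.122, 0.149, 0.173 and 0.156). The fold changes moved little: without array 2 they were 2.87, 2.54, 1.66 and 2.42 in the same order. Gadd45b also lost its call without collecting duct 1 (0.145) or any one of 9 arrays of other components (proximal tubule 2, ureteric tip 1, 2 and 3, S-shaped body 2 and 4, and interstitium 2, 3 and 4), with an adjusted p of 0.0501 to 0.0592. The uncalled members furthest from 0 were Ccn2 (-2.32, adjusted p = 0.285), Atf3 (-1.54, adjusted p = 0.330), Ccn1 (-1.37, adjusted p = 0.307) and Maff (-1.28, adjusted p = 0.540). Dusp6, a phosphatase of ERK, was the 1 call of 38 other immediate early genes (-1.63), and none of 21 other heat shock genes was called.

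**Figure D4:**
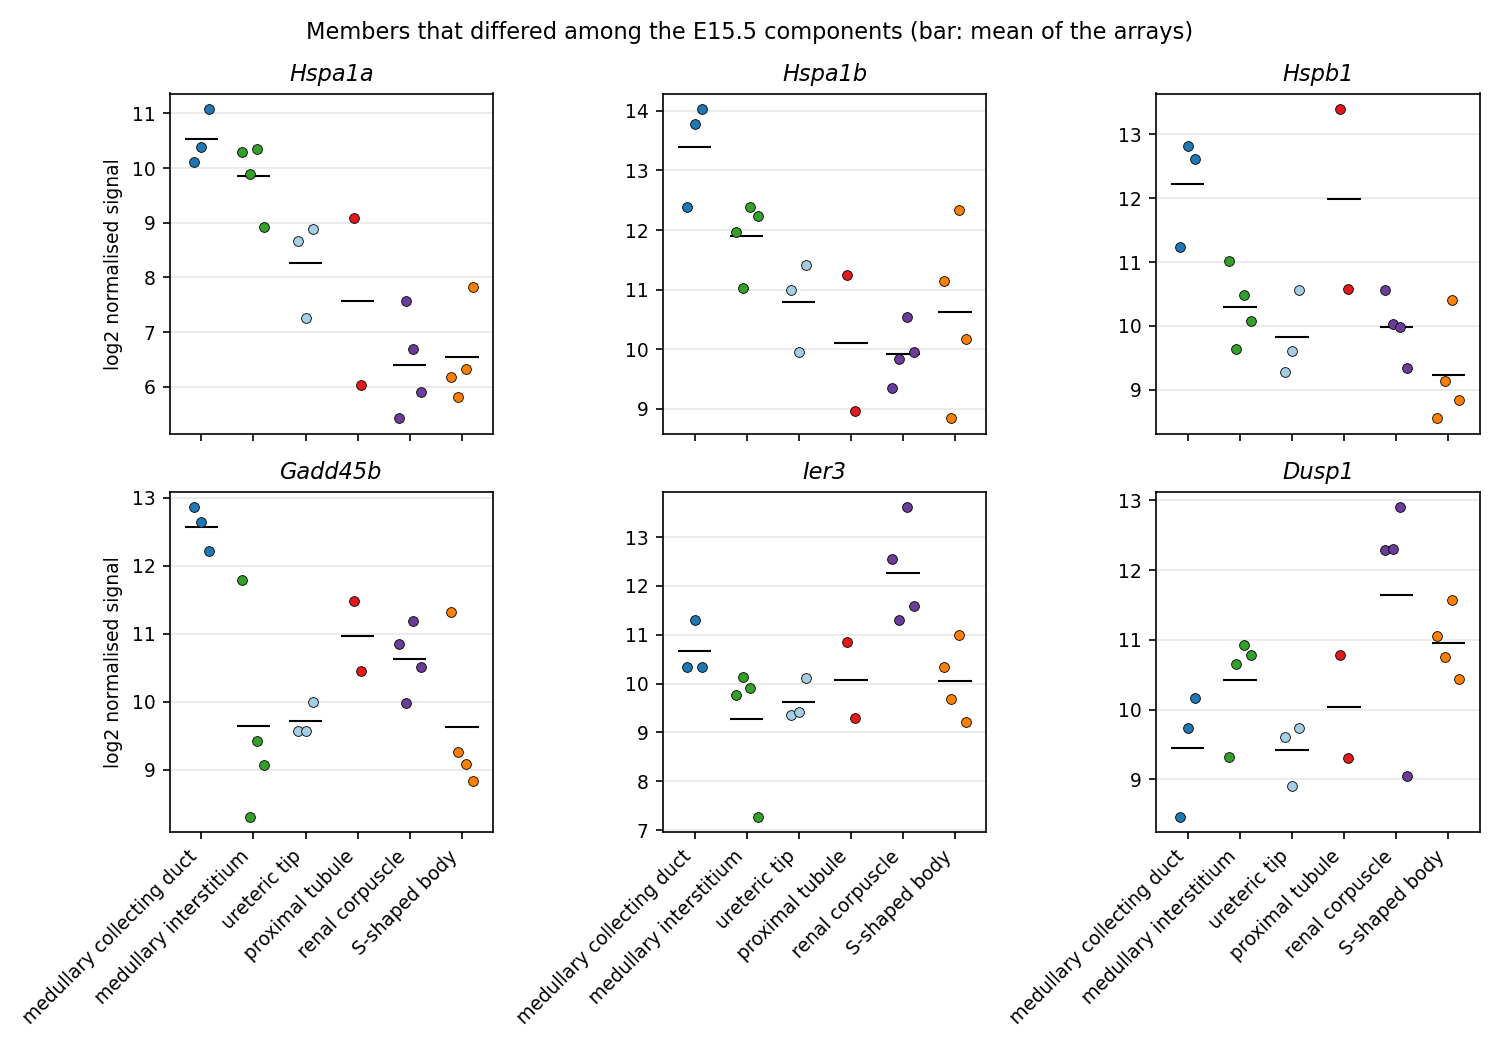
Log2 normalised signal (vertical axis) of 6 members in the 6 components of E15.5, one point per array with a bar at the mean. Hspa1b lay at 12.38 to 14.03 in medullary collecting duct, and Ier3 at 11.31 to 13.61 in renal corpuscle. Renal corpuscle 4 is the low corpuscle point for Dusp1.

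Medullary interstitium had 1 member called, Hspa1a, beside 5.41% of all genes. Macrophage markers averaged 9.74 to 10.99 in interstitium against at most 10.02 in the other arrays, and 4 of 8 were called higher (Mrc1, C1qb, Lyz2 and Tyrobp). Mural and mesangial markers averaged 11.52 to 12.49 against 8.55 to 12.24, with 2 of 6 called higher (Tagln and Rgs5), and the part of either list in the result was not tested. Hspa1a was at 10.30, 9.89, 10.34 and 8.92 in interstitium, against 5.42, 7.41 and 11.08 (lowest, median, highest) in the other arrays, with a log2 fold change of 2.01 (adjusted p = 0.0185). With the collecting duct, the 2 medullary components held the highest mean levels of Hspa1a (10.52 and 9.86). With title date as a fixed block the value was 2.12 and not called (adjusted p = 0.196). The call was lost without interstitium 1 (adjusted p = 0.0533), 2 (0.0506) or 3 (0.103). The uncalled members furthest from 0 were Ccn2 (2.01, adjusted p = 0.162), Klf6 (1.49), Fos (-1.33) and Ier3 (-1.28). Among the lists Cryab (2.18) was the 1 call of 21 other heat shock genes, while Cebpd, a bZIP factor (1.47), and Cdkn1a (-1.83) were the calls of 38 other immediate early genes.

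Renal corpuscle, the forming filter with its podocytes, had Ier3 and Dusp1 higher and Hspa1a lower, 3 of 34 members (8.82%) beside 4.38% of all genes. Endothelium markers averaged 9.76 to 12.11 in corpuscle against 7.85 to 11.30 in the other arrays, and 4 of 8 were called higher (Kdr, Pecam1, Tie1 and Egfl7); their part in the result was not tested. Ier3 was at 12.56, 11.31, 13.61 and 11.59 in corpuscle arrays, against 7.27, 10.01 and 11.30 (lowest, median, highest) in the others (2.33, adjusted p = 0.00323). Every corpuscle array was above every other array, by a very small step at the lower end. Dusp1 was at 12.29, 12.31, 12.90 and 9.05, against 8.46, 10.30 and 11.57 (1.58, adjusted p = 0.0408), and the low value was renal corpuscle 4.

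Ccn2 showed the same array apart, at 13.93, 14.06 and 14.24 in corpuscle arrays 1 to 3 and 8.40 in array 4, and was not called with it (1.80, adjusted p = 0.224) but was without it (3.22, adjusted p = 0.0124). Without corpuscle 4 alone, Dusp1 was at 2.44 (adjusted p = 0.000386), Ier3 at 2.56 (0.00327) and Hspa1a at -1.99 (0.0478). With renal corpuscle 4 and S-shaped body 3 left out, 6 members were called, beside 6.32% of all genes, Fos (2.66, adjusted p = 0.0366) and Ccn2 (3.32, adjusted p = 0.00664) among them. Fos was at 10.83, 11.27, 12.22 and 7.99 in corpuscle arrays 1 to 4 and was not called with all arrays. It was also not called with title date as a fixed block (4.00, limma adjusted p = 0.259). Within single title dates, Ier3 in corpuscle 1, 2 and 3 exceeded the mean of the other arrays by 2.68, 1.42 and 3.27, and Dusp1 by 2.75, 1.38 and 4.43. For corpuscle 2 the only other array was interstitium 3, and for corpuscle 3 it was collecting duct 1. Corpuscle 4 was assigned no title date and is not among them. With title date as a fixed block neither was called (Ier3 2.92, adjusted p = 0.203, and Dusp1 2.70, adjusted p = 0.145), and 3 of all genes were. Hspa1a was at 5.42, 7.56, 6.69 and 5.91 in corpuscle, against 5.81, 8.90 and 11.08 (-2.15, adjusted p = 0.0149), and at -1.44 with the date block (adjusted p = 0.466). Klf4 was uncalled at 1.48.

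Dusp1 lost its call without corpuscle 1 (adjusted p = 0.145), 2 (0.0962) or 3 (0.223), and also without proximal tubule 2 (0.0650), collecting duct 1 (0.0540), tip 2 (0.0594) or S-shaped body 2 (0.0502) or 4 (0.0510). Hspa1a lost it without corpuscle 1 (0.0821), and Socs3, at -1.98 with all arrays (adjusted p = 0.0729), was called without corpuscle 2 (-2.65, adjusted p = 0.0164). Gadd45a was the 1 call of 38 other immediate early genes (3.75), and none of the other lists had a call.

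Proximal tubule rested on 2 arrays that differed from each other. Jun and Egr1 were lower and Hspb1 higher, 3 of 34 members (8.82%) beside 14% of all genes, so the members' share was below that of all genes. Jun was at 10.81 and 10.29 in proximal tubule, against 11.89, 12.48 and 13.10 (lowest, median, highest) in the others (-1.94, adjusted p = 3.46e-05), below every other array. Egr1 was at 6.07 and 10.83, against 7.22, 12.29 and 13.77 (-3.70, adjusted p = 0.00599), and Hspb1 at 13.40 and 10.58, against 8.55, 10.05 and 12.82 (1.68, adjusted p = 0.0285).

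Leaving out either proximal tubule array leaves 1, which the fit assumes to vary like the other groups. Only Jun was called without proximal tubule 1, beside 7.82% of all genes, where Egr1 was at -1.32 (adjusted p = 0.514) and Hspb1 at 0.27 (adjusted p = 0.840). Without proximal tubule 2, 5 members were called, beside 12.7% of all genes, Klf4 at -4.65 (adjusted p = 0.0428) among them. Fos was at 12.52 and 7.69 in these 2 arrays. With title date as a fixed block Jun was called (-2.48, adjusted p = 0.0244), while Egr1 was at -1.36 and Hspb1 at -0.36. The Actb 3' to 5' log2 ratio was 3.37 and 4.50 in proximal tubule against 1.35 to 3.06 in the other arrays, and with it as a covariate Egr1 was not called (-3.96, adjusted p = 0.0814). The uncalled members furthest from 0 were Atf3 (1.55), Klf4 (-1.50), Egr2 (-1.50) and Zfp36 (1.31). The second Jun probe set was not called (-1.06, adjusted p = 0.168). In the other lists, Dnaja1, an Hsp40 (-1.33), Dnajb4, another (-2.99), Hspa4, an Hsp110 (-1.21), and Cacybp, an Hsp90-associated protein (-1.19), were lower and Hspbp1, an Hsp70 exchange factor, higher (1.47), 5 of 21 heat shock genes. Of 38 other immediate early genes, Cdkn1a was higher (3.25) and Rgs2 (-2.97), Ifrd1 (-1.79) and Ier5 (-1.28) were lower, and Elk3, a ternary complex factor, was lower among the upstream factors (-1.76).

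S-shaped body had Hspb1 lower as its 1 call of 34, beside 1.06% of all genes. It was at 8.55, 9.14, 10.41 and 8.84 in S-shaped body, against 9.28, 10.52 and 13.40 (lowest, median, highest) in the others (-1.63, adjusted p = 0.0348), the highest value being that of S-shaped body 3. The call ended without S-shaped body 1 (adjusted p = 0.204), 2 (0.0940) or 4 (0.159), and also without proximal tubule 1 (0.0539), collecting duct 2 (0.0562) or 3 (0.0510) or tip 3 (0.0523). Without S-shaped body 3 it was called, at -2.02 (adjusted p = 0.0092). It was at -2.08 and not called with title date as a fixed block (adjusted p = 1). Hspa1a, at -1.99 (adjusted p = 0.0570), was called without corpuscle 1 (0.0473) or 4 (0.0464), proximal tubule 2 (0.0129) or tip 2 (0.0484). The next uncalled members by size were Klf6 (-1.16), Egr1 (1.15) and Gadd45b (-1.08). Among the E15.5 components the ureteric tip had no member called, beside 1.2% of all genes, and Cryab was its 1 call of 21 other heat shock genes (-3.08). Its members furthest from 0 were Klf2, a zinc finger factor induced by fluid shear in endothelium (-1.44), Rhob (-1.20), Ccn2 (-1.18) and Fos (-1.15).

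Over the 11 pairwise comparisons, 17 of the 34 members were called at least once by the probe set used and 17 were not. The spread of the uncalled members differed widely on the normalised scale. Hspa8 had a mean of 16.62 over the 37 arrays with an SD of 0.179, Hsp90aa1 15.21 with 0.337, Hsph1, an Hsp110 exchange factor, 14.63 with 0.511, and Nfkbia, the inhibitor that holds NF-kappa B in the cytoplasm, 14.80 with 0.559. Hspa8 lies near the top of the normalised scale, and its deposited signal ran from 50940 to 194200. Fos had an SD of 2.84, Egr2 of 2.62, Fosb of 2.54 and Egr1 of 2.19, and these were the members with the largest spread. Among the uncalled members, Ccn2 (SD 1.99), Klf4 (1.91), Klf6 (1.57), Maff (1.53) and Socs3 (1.36) had the larger spreads over the 37 arrays. Egr3 (0.781), Per1, a clock gene that is also serum-induced (0.815), Ier2 (0.936), Rhob (0.990), Gadd45g, a growth arrest protein (1.02), Atf3 (1.26) and Klf2 (1.28) lay between, and Jund was at 0.475. The Egr3 spread is that of its brighter probe set, whose mean of 7.06 was under the intensity filter, so it does not show a stable gene. The other Egr3 probe set was called higher in dissected or collagenase than in LCM mesenchyme (4.34). It was also called lower in bud than in mesenchyme.

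Across all 37 arrays, likeness to Fos and to Hspa1b was described by Pearson's r, with no test, since arrays share components, dates and collection words. Among members, Fos was most like Zfp36 (r = 0.824), Dusp1 (0.806), Fosb (0.791) and Btg2 (0.774), and its r with Hspa1b was 0.02. After the group means were removed, r with Fos was 0.548 for Zfp36, 0.740 for Dusp1, -0.245 for Fosb and 0.370 for Btg2. The likeness to Fosb thus lay between groups rather than within them. For Hspa1b, r with Fos was 0.55 after the group means were removed, so the value of 0.02 holds across all arrays but not within groups. The 6 genes outside the list with the highest r to Fos were Ascc1 (0.735), Bcl2l13 (0.727), Phactr4 (0.713), Atp5a1 (0.711), Wdr26 (0.709) and Calcoco1 (0.703). Those closest to Hspa1b were Scin (0.804), Fxyd4 (0.771), Galnt3 (0.759), Chmp2b (0.753), Glud1 (0.749) and Anxa4 (0.734).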

How the data were processed

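RNA of 37 pools was hybridised to Affymetrix mouse expression arrays, 1 colour, after 2 rounds of amplification, per the labels' protocols. The deposited values are GCOS signal intensities on a linear scale, per the submitters' processing notes, whose version is not given in the sources used here. As the file shows, the authors scaled every array to a 2% trimmed mean of 1500. From these intensities, log2(signal + 34.62) was taken, the offset being the 20th percentile of all values, and the arrays were quantile normalised. The offset understates the change of low genes. Of 45101 probe sets, 64 were controls. Probe sets above the pooled median (7.89) in at least 2 arrays were kept (35838, of which 34958 name 1 gene), and each of 15710 genes was represented by its probe set of highest mean.

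Tests were run in limma 3.58.1 (R 4.3.3), with 1 mean for each of 13 groups, 24 residual degrees of freedom, eBayes with a trend and Benjamini-Hochberg adjustment over all 15710 genes. Each adjusted p in the text is from limma, and a call needs an adjusted p under 0.05 and a log2 fold change of at least 1. The number of arrays limits the precision. The code was tested on simulated data. The members and lists were chosen with earlier results of these data known. All 34 members are accounted for. In each comparison the called members and the 4 uncalled members with the largest log2 fold change are named, and from each other list its largest calls, or its largest value where none was called. One of these values, in tip against bud, is not reported here. Alternatives covered the offset, scaling, filter, probe set, array weights, samples fitted, title date, replicate block, doubted arrays, RNA quality and leaving out each array. The numbers in the titles were checked as pairs by the correlation of deviations, which cannot show whether arrays shared animals. Promoter sequences are from RefSeq, build GRCm38.p6.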

Additional observations from a re-analysis of the deposited data

Results flagged for a closer look

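Among 204 sets of 1 member in 1 group of 4 or 5 arrays, 25 (12.3%) had a single array standing apart from the others by Dixon's criterion. Its nominal rate of about 1 in 20 does not apply directly here. The members share the same arrays, and some groups mix collection words or hold a doubted array. No share over all genes is given beside this count, so it is not a result about these members. All values are log2 normalised signal, and no cause was tested.

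In renal corpuscle, array 4, whose markers went against its label, stood apart for 3 members: Ccn2 at 8.397 (others 13.93 to 14.24), Dusp1 at 9.052 (others 12.29 to 12.90) and Jund at 13.12 (others 12.23 to 12.36). Egr1 was at 7.217 in corpuscle 3 (others 12.25 to 13.11) and Hspa8 at 16.46 in corpuscle 1 (others 16.39 to 16.40). In S-shaped body, Socs3 was at 9.65 in array 2 (others 11.97 to 12.08), Egr2 at 7.621 in array 2 (others 6.65 to 6.79) and Fosb at 7.308 in array 4 (others 6.30 to 6.42).

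In medullary interstitium, Klf4 was at 6.947 (others 10.53 to 11.26) and Zfp36 at 8.248 (others 10.01 to 10.12), both in array 3. Ier3 was at 7.272 in interstitium 4 (others 9.76 to 10.13) and Hsp90aa1 at 15.66 in interstitium 2 (others 15.27 to 15.28). In renal vesicle, array 5 was low for Junb at 5.809 (others 7.64 to 8.29) and Egr1 at 10.26 (others 12.15 to 12.71). Klf4 was at 5.578 in vesicle 4 (others 9.93 to 11.33), Ier3 at 7.198 in vesicle 1 (others 9.06 to 9.51) and Ccn1 at 12.17 in vesicle 3 (others 8.86 to 9.496).

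In ureteric bud, the collagenase array stood apart from the 3 dissected arrays for 4 members: Fosb at 12.41 (others 10.72 to 10.74), Jund at 11.59 (others 12.31 to 12.42), Gadd45b at 7.878 (others 9.14 to 9.38) and Hspa1a at 7.062 (others 8.75 to 9.08). Btg2 was at 12.57 in bud dissected 3 (others 11.66 to 11.75). In mesenchyme titled dissected or collagenase, Gadd45b at 7.072 (others 8.56 to 8.71) and Gadd45g at 9.355 (others 10.29 to 10.32) were low in collagenase 1, and Jund was at 14.00 in collagenase 2 (others 12.01 to 12.34).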

How the results depend on the processing

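Counts are members called, beside those given in the report. The share of all genes called in the same setting follows in brackets, except for leaving out single arrays. With array weights there were 13 for mesenchyme titled dissected or collagenase against LCM (5.08% of all genes), 6 for bud against mesenchyme (15.6%), 7 for vesicle (11.6%), 19 for tip against bud (23.2%), 6 for tip against the other components (13.3%) and 16 by the F test (27.9%). With a fit of the compared samples only there were 14 for the mesenchyme comparison (2.43%), 8 for bud against mesenchyme (16.1%), 17 for tip against bud (18.4%) and 0 for S-shaped body (0.274%). With title date as a fixed block there were 0 for S-shaped body (0%), corpuscle (0.0191%) and interstitium (0.0764%). There were 1 for proximal tubule (2.09%), 2 for collecting duct (0.694%) and 1 by the F test (1.52%), and Hspb1 in proximal tubule turned to -0.36. That block could not be fitted for the comparisons with E11.5 or E12.5 arrays. With the title number as a replicate block there were 3 for the mesenchyme comparison (0.127%), 1 for vesicle (1.23%) and 0 for interstitium (3.8%). In the mesenchyme comparison Egr1, Nr4a1 and Btg2 were lost at adjusted p of 0.172, 0.0862 and 0.0641. By title number, the median correlation of deviations was 0.00993 over 92 pairs of the same number (range -0.22 to 0.22) and -0.0017 over 367 others. Whether arrays shared animals cannot be read from these values. Mesenchyme collagenase 1 and the bud collagenase array share a title date under different numbers. With the probe set of largest variance there were 0 for S-shaped body (0.936%) and 5 for proximal tubule (16.4%). There were also 1 for tip against the other components (1.42%) and 2 for collecting duct (1.5%). Dnajb1 in bud turned to 0.21 and Ccn1 in tip against bud to 0.56 (0.51 without _x_at and _s_at probe sets). With all kept probe sets the shares are of 29078 probe sets. There were 1 for collagenase against dissected (0.0138%), 1 for vesicle (1.85%), 7 for proximal tubule (14.8%) and 1 for tip against the other components (1.09%). Without _x_at and _s_at probe sets there was 1 for vesicle (2.43%). An offset of 100 (1.23%) or the deposited scaling (1.04%) gave 2 for S-shaped body. The deposited scaling (2.98%) or adding the array without a method word (3.98%) gave 1 for vesicle. The Actb ratio as a covariate left 6 for tip against bud (1.01%) and 2 for collecting duct (0.802%). Leaving out both doubted arrays gave 6 for corpuscle (6.32%). Leaving out single arrays gave 3 to 6 for the mesenchyme comparison, 0 to 0 for collagenase against dissected, 2 to 3 for bud, 0 to 1 for vesicle, 4 to 9 for tip against bud, 0 to 2 for S-shaped body, 1 to 4 for corpuscle, 1 to 5 for proximal tubule, 0 to 0 for tip against the other components, 0 to 4 for collecting duct, 0 to 1 for interstitium and 7 to 13 by the F test. The cause of these changes was not tested. Over the named members, 1881 results kept direction and side of the threshold, 124 lost a call, 50 gained one and 4 reversed. With the deposited scaling, all genes split into 13 higher and 58 lower (against 16 and 40) in the mesenchyme comparison, 1103 and 1160 (against 1322 and 870) for proximal tubule and 98 and 57 (against 92 and 96) for tip against the other components. It moved the median of all genes by over 0.1 for tip against bud (0.16 against -0.22), proximal tubule (-0.10 against 0.11), tip (0.03 against -0.09) and collecting duct (0.06 against -0.08). Signal near background, as for Fos and Fosb in LCM arrays and Egr2 and Fosb in tip, limits the precision of the largest folds.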
